A study of Mus musculus with 12 samples.

Results

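Gcgr encodes the glucagon receptor, and its RNA was followed here across the left ventricles of 12 adult mice. One probe of 60 bases carried this gene name among the 55681 probes of the array, which named 22173 genes, and it was printed as 1 spot per array. The gene was chosen because it was higher in the mutants and graded by the stage of deletion, so its levels are given as a description and without a test. Each array held the RNA of the free wall and apex of 1 left ventricle, without the septum, from a mouse aged 6 months, and there were 4 mice in each of 3 groups.

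The mutants carried floxed alleles of Nkx2-5 (Floxed-Nkx2-5-ΔNeo), a homeodomain transcription factor of the heart, together with Cx40-creERT2, a tamoxifen-dependent Cre recombinase made from the Cx40 (Gja5) locus, which is broadly active in embryonic trabecular myocardium. In the first mutant group, Nkx2-5ΔTrbE10 (Nkx2-5Δtrab in the labels), tamoxifen was given to the pregnant females at E10.5 and E11.5, while trabeculae form. In the second, Nkx2-5ΔTrbE14 (Nkx2-5Δcomp in the labels), it was given at E13.5 and E14.5, while they compact. Controls had the floxed alleles without Cre. The labels record no tamoxifen injection for them, whereas the study's methods describe them as littermates. The deletion is mosaic, because it takes place only where Cx40 is active at the time of tamoxifen, so each ventricle mixed deleted and undeleted muscle with non-muscle cells, and in such bulk samples fewer cells of a type and less RNA per cell cannot be told apart. All control and Nkx2-5ΔTrbE14 arrays were on one slide and all Nkx2-5ΔTrbE10 arrays on another, so slide and early deletion cannot be told apart in any comparison that involves Nkx2-5ΔTrbE10.

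The glucagon receptor is a class B G protein-coupled receptor best known from the liver. Glucagon, a peptide of the pancreatic alpha cell cut from the product of Gcg, binds it, the stimulatory G protein Gs activates adenylyl cyclase, and cyclic AMP then acts through protein kinase A to drive glycogen breakdown, gluconeogenesis and fatty acid use. The heart also responds to glucagon, with a stronger and faster beat. Receptor kinases and beta-arrestins switch such receptors off, phosphodiesterases remove cyclic AMP, and RAMP proteins partner several receptors of the class.

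The probe matches mm9 chr11:120400221-120400280 in the array's annotation. The start region of the gene is shown because deletion removes a transcription factor, and a reader may wish to see which motif letters stand in front of Gcgr. RefSeq (GRCm38.p6) places it on the plus strand at chr11:120530477-120530776, from 250 bases before the transcription start to 50 after it, and the capitals mark the GC box, GGGCGG, read here on the minus strand as CCGCCC.
Gcgr promoter: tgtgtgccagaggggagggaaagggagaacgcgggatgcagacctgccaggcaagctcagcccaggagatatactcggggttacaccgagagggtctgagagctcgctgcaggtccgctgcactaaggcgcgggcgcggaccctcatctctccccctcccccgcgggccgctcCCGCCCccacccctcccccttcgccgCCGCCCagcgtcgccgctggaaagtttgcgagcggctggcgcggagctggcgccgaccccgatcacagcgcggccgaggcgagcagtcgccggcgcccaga
The GC box occurred 2 times, starting at bases 174 and 200 of this window, and 35.7% of 32851 RefSeq promoters of the same length held at least 1. The core of the Nkx2-5 binding element, AAGTG, had 0 matches on either strand, and 46.4% of promoters held it. The cyclic AMP response element TGACGTCA had 0 matches (1.79% of promoters), as had its half-site TGACG, which lies within it (20.8%), and the nuclear receptor half-site AGGTCA (16.3%). The window was 71.7% G and C, against a median of 52.7% over all promoters, and 93.1% of promoters were at or below that value. These letters describe the window only and say nothing of binding elsewhere.

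In the control ventricles Gcgr RNA lay near the limit of detection. The log2 signal after quantile normalization was 5.23, 5.49, 5.02 and 4.31 in control mice 1 to 4. The scanner software called the spot well above background in the first 3 but not in control 4. In Nkx2-5ΔTrbE14 the values were 5.95, 6.35, 6.58 and 5.81, all well above background. In Nkx2-5ΔTrbE10 they were 7.29, 6.61, 7.26 and 6.93, again all well above background. No control mouse reached a mutant mouse.

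The group means were 5.01 ± 0.51 in controls, 6.17 ± 0.35 in Nkx2-5ΔTrbE14 and 7.02 ± 0.32 in Nkx2-5ΔTrbE10 (log2 signal, SD, n = 4 each). Gcgr was thus 4.02-fold higher in Nkx2-5ΔTrbE10 than in controls (log2 difference 2.01) and 2.23-fold higher in Nkx2-5ΔTrbE14 (1.16). Between the mutants the early deletion was 1.80-fold higher (0.85). These steps chose the gene, so no p-value is given for them.

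The difference between control and Nkx2-5ΔTrbE14 exceeded the SD of either group, with 0.32 log2 units between the highest control and the lowest mutant. The step between the mutants was less clear: only 0.032 log2 units separated the lowest Nkx2-5ΔTrbE10 mouse, replicate 2, from the highest Nkx2-5ΔTrbE14 mouse, replicate 3. In the scanner's processed signal, before normalization, these neighbours crossed, with 87.9 in Nkx2-5ΔTrbE10 replicate 2 against 90.2 and 89.9 in Nkx2-5ΔTrbE14 replicates 2 and 3. They also crossed when each array was scaled to its 75th percentile, at -1.23 and -1.16. With the authors' own normalized values the order was clear again, with a gap of 0.23. The 2 mutant groups were therefore ordered by their means, while single mice from them were not always separable.

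**Figure D1:**
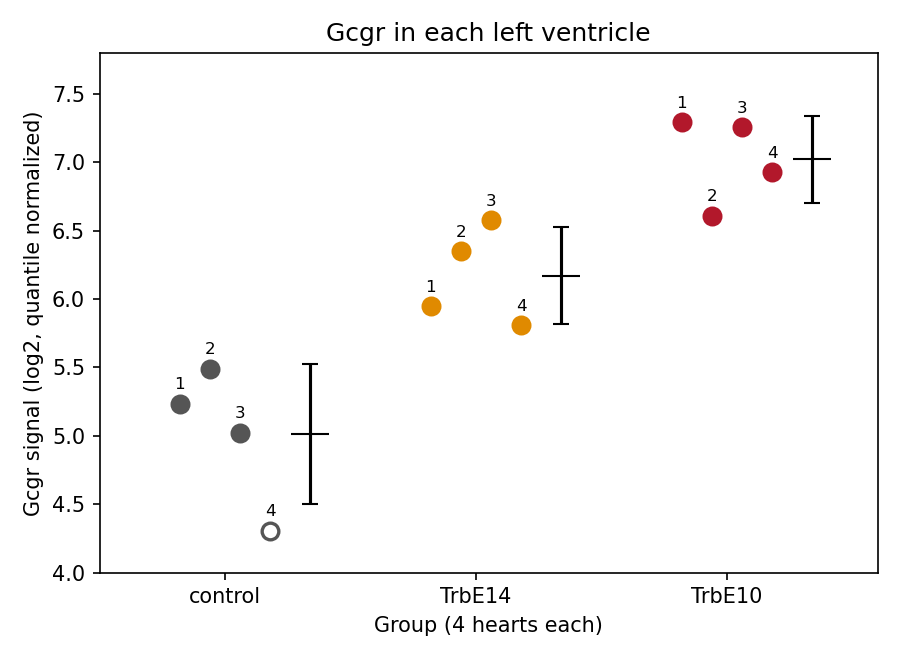
Gcgr log2 signal after quantile normalization (vertical axis, which starts at 4) in each of the 4 hearts of each group, with the replicate number above each point and the mean ± SD beside it. The open point is control 4, which was not well above background. All mutant hearts lie above all controls, and Nkx2-5ΔTrbE10 replicate 2 lies just above Nkx2-5ΔTrbE14 replicate 3.

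The control signal was dim, and the size of the difference depended on how background was treated. The processed signals were 38.9, 49.8, 34.3 and 19.6 in controls, 66.6, 90.2, 89.9 and 56.1 in Nkx2-5ΔTrbE14, and 151, 87.9, 153 and 119 in Nkx2-5ΔTrbE10. With a normexp background correction, which draws dim spots together, the differences from control shrank to 2.00-fold in Nkx2-5ΔTrbE10 and 1.33-fold in Nkx2-5ΔTrbE14, without overlap of the groups. The authors' values gave 3.44-fold and 1.79-fold. Without control 4, the dimmest array, the log2 differences were 1.77 and 0.92. The local background of Nkx2-5ΔTrbE14 replicate 3 was marked as an outlier, though the spot itself was not, and without that mouse the Nkx2-5ΔTrbE14 difference was 1.02.

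Of the 13316 genes that passed a filter on dim signals, ranked by their difference from control, Gcgr was number 50 from the top in Nkx2-5ΔTrbE10 and number 134 in Nkx2-5ΔTrbE14. The full order, control below Nkx2-5ΔTrbE14 below Nkx2-5ΔTrbE10 with no overlap, was met by 23 of 13312 genes, Gcgr included (0.173%), and 5 ran the opposite way (0.0376%). Gcgr was chosen for it, so nothing is read from that share. Its pooled within-group SD was 0.40, against a median of 0.31 for 1347 genes of similar signal.

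Y-linked transcripts were present in 1 control, 2 Nkx2-5ΔTrbE10 and 3 Nkx2-5ΔTrbE14 mice, so sex was unbalanced. Within the mice without them, Gcgr ranged from 4.31 to 5.49 in 3 controls, was 5.95 in 1 Nkx2-5ΔTrbE14 mouse, and 7.26 to 7.29 in 2 Nkx2-5ΔTrbE10 mice. Among those with them it was 5.23 in 1 control, 5.81 to 6.58 in 3 Nkx2-5ΔTrbE14 mice and 6.61 to 6.93 in 2 Nkx2-5ΔTrbE10 mice. The order within each subset follows from the lack of overlap over all 12 mice and adds nothing to it.

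The targeted gene itself fell. Nkx2-5 had a log2 signal of 11.95, 12.23, 11.93 and 11.89 in controls, against 11.27, 11.67, 11.21 and 11.22 in Nkx2-5ΔTrbE10 and 11.12, 11.57, 11.32 and 11.63 in Nkx2-5ΔTrbE14. In limma, fitted to all filtered probes with Benjamini-Hochberg adjustment, it fell by 0.66 ± 0.14 (SE) in Nkx2-5ΔTrbE10 (adjusted p = 0.0459), and the Nkx2-5ΔTrbE14 difference was -0.59 (adjusted p = 0.106). Nkx2-5ΔTrbE10 replicate 2, the mouse with the most Nkx2-5 RNA of its group, was also the one with the least Gcgr. Over all 12 arrays the Pearson correlation of the 2 genes was -0.75, but with group means taken out it was -0.02, so the relation lay in the group means. These are descriptions over arrays that share groups and slides.

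Few genes of the receptor's family and pathway passed the test. Of 210 other genes listed around glucagon signalling, 160 passed the filter, and 3 rose in Nkx2-5ΔTrbE10 against control at an adjusted p under 0.05 (1.88%), near the shares of all 13316 genes called in that comparison (2.24% in either direction, 1.58% higher and 0.653% lower). In Nkx2-5ΔTrbE14, 2 rose (1.25%), against 0.781% of all genes in either direction, 0.653% higher and 0.128% lower. In this fit, without covariates, no listed gene was called lower in either mutant by limma, and at an unadjusted p under 0.05 the numbers were 33 (20.6%, against 17.5% of all genes) and 25 (15.6%, against 14.9%). The median change over the list was -0.05 and -0.02, against -0.02 and -0.02 over all genes. Between the mutants 0 of 160 were called (0% of all genes), with 11 at an unadjusted p under 0.05 (6.88%, against 5.21% of all genes). With sex as a covariate, 7 and 4 were called against control (4.38% and 2.5%), where 3.14% and 0.992% of all genes were. Those calls mixed directions. Sct, Gng2 and Arrb2 were higher in both mutants, Vipr2 was lower in both (-0.76 and -1.12), and Gpt was lower in Nkx2-5ΔTrbE10 (-0.84).

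**Figure D2:**
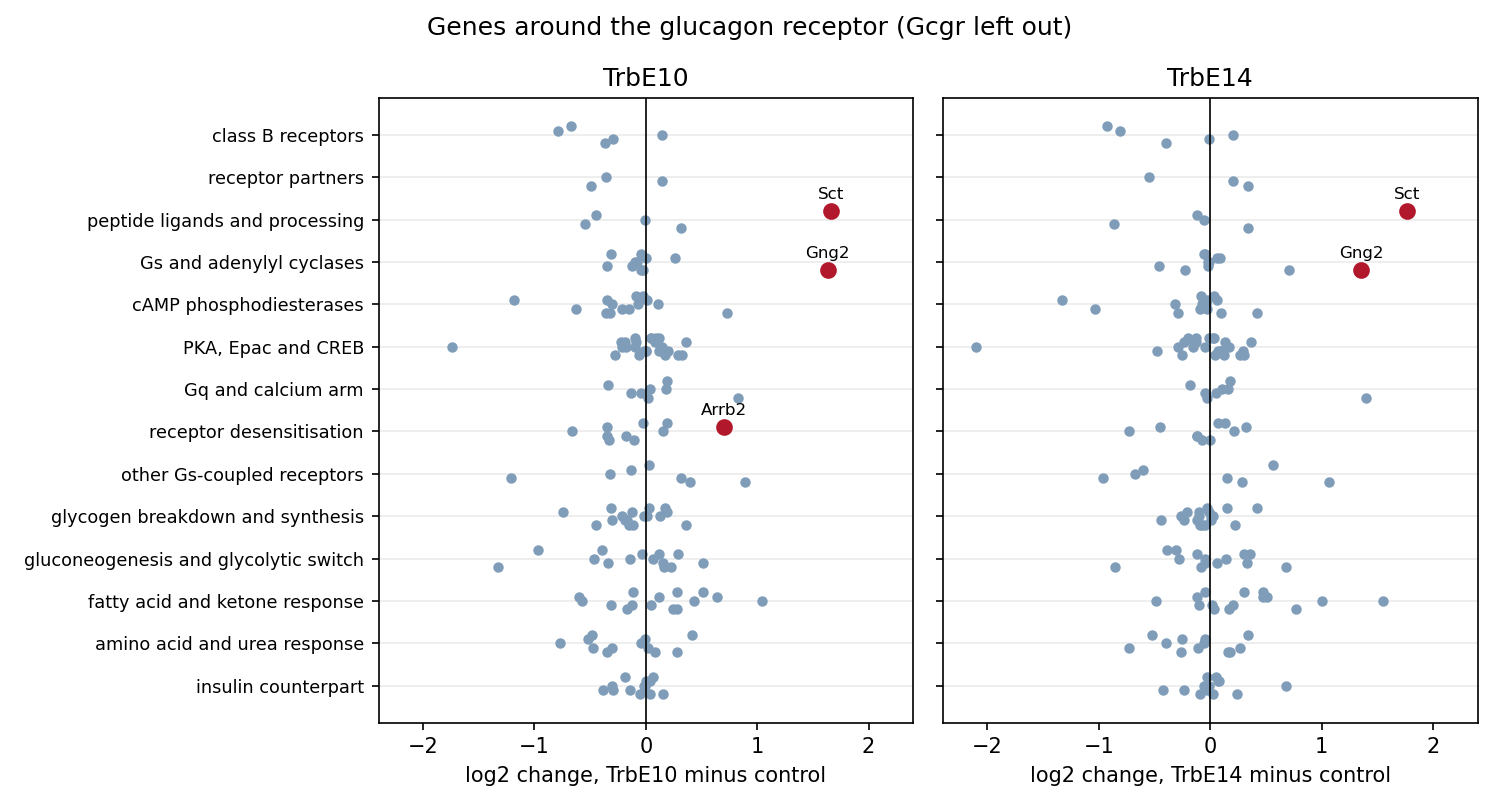
Change in log2 signal against control (horizontal axis) for the 160 measured genes around the glucagon receptor, one point per gene, grouped in rows by role, in Nkx2-5ΔTrbE10 (left) and Nkx2-5ΔTrbE14 (right). Large red points passed an adjusted p of 0.05: Sct, Gng2 and Arrb2 on the left, Sct and Gng2 on the right. Gcgr is left out.

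The ligand Gcg was not well above background on any of the 12 arrays. Of 21 genes for ligands of the family and for enzymes that cut or degrade them, 5 passed the filter, and 1 rose in both mutants. That gene was Sct, which encodes secretin, a gut hormone of the same peptide family that acts on its own receptor. Its signal was 5.35, 4.63, 4.44 and 4.81 in controls, well above background in 2 of the 4, against 5.88, 6.38, 6.67 and 6.93 in Nkx2-5ΔTrbE10 and 6.49, 6.31, 6.85 and 6.65 in Nkx2-5ΔTrbE14. No control reached a mutant, and the mutant groups overlapped. Sct rose by 1.66 ± 0.24 (log2, SE; 3.16-fold) in Nkx2-5ΔTrbE10 (limma adjusted p = 0.00681) and by 1.77 (3.41-fold) in Nkx2-5ΔTrbE14 (adjusted p = 0.00691). It passed the filter only through the mutant groups, where it is high. With a filter on 9 of 12 arrays regardless of group the adjusted p was 0.00657 and 0.00708, and without a filter 0.0246 and 0.0252. As with Gcgr, the size depended on the background treatment, at 0.68 and 0.78 (log2) with normexp and 1.29 and 1.43 with the authors' values. Unlike Gcgr, its mean was not higher after early deletion, at a difference of -0.11 between the mutants (adjusted p = 0.977). Adm, which encodes the vasodilator adrenomedullin, had differences of 0.32 and 0.34 (adjusted p = 0.396 and 0.408). The receptor for secretin, Sctr, was not well above background on any array.

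Of the 15 class B receptors listed, 5 besides Gcgr passed the filter, and none was called in either mutant by limma, with 2 and 3 at an unadjusted p under 0.05. Their median change was -0.37 in Nkx2-5ΔTrbE10 and -0.40 in Nkx2-5ΔTrbE14, and only Pth1r, the parathyroid hormone receptor, had a positive value in each. Vipr2, a receptor for vasoactive intestinal peptide and PACAP, had 6.75, 5.92, 6.38 and 6.31 in controls, 5.60, 5.69, 5.63 and 5.76 in Nkx2-5ΔTrbE10 and 4.98, 5.48, 5.90 and 5.27 in Nkx2-5ΔTrbE14. All mutants lay below all controls, but the differences of -0.67 ± 0.20 and -0.93 ± 0.20 (SE) did not pass (adjusted p = 0.126 and 0.072). With sex as a covariate both did (0.0421 and 0.0191), and with the authors' values that in Nkx2-5ΔTrbE14 did (0.0365). Crhr2, the corticotropin-releasing hormone receptor of heart muscle and vessels, had -0.30 and -0.01 (adjusted p = 0.414 and 0.981). The closest relatives of Gcgr, the incretin receptors Glp1r and Gipr, did not pass the filter: Glp1r was well above background in 2 controls, 0 Nkx2-5ΔTrbE10 and 2 Nkx2-5ΔTrbE14 mice, and Gipr in 1 Nkx2-5ΔTrbE14 mouse. All 3 RAMP genes were measured and 0 were called. Ramp1 had -0.49 and 0.34, Ramp2 0.14 and 0.20, and Ramp3 -0.36 and -0.55.

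Of 11 genes of Gs and the adenylyl cyclases that passed the filter, 1 was called. Gng2, a gamma subunit of heterotrimeric G proteins, had 8.23, 7.97, 8.08 and 7.77 in controls, 10.1, 9.40, 9.66 and 9.40 in Nkx2-5ΔTrbE10 and 9.87, 9.43, 9.31 and 8.87 in Nkx2-5ΔTrbE14. It rose by 1.63 ± 0.22 (SE) in Nkx2-5ΔTrbE10 and by 1.36 in Nkx2-5ΔTrbE14, with no overlap of either mutant with controls (limma adjusted p = 0.00367 and 0.0177). The Nkx2-5ΔTrbE14 call was lost when control 2, 3 or 4 or Nkx2-5ΔTrbE14 replicate 2 was left out (adjusted p up to 0.0635). Gnas, which encodes the alpha subunit of Gs, had -0.10 and -0.02 (adjusted p = 0.578 and 0.92).

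Among 10 genes that switch receptors off, Arrb2 was called in 1 contrast. It encodes beta-arrestin 2, which binds phosphorylated receptors and takes them from the membrane. Its signal was 7.40, 7.83, 7.85 and 7.62 in controls, 8.59, 8.14, 8.60 and 8.16 in Nkx2-5ΔTrbE10 and 8.12, 8.01, 7.88 and 7.98 in Nkx2-5ΔTrbE14. Like Gcgr, it was ordered control, Nkx2-5ΔTrbE14, Nkx2-5ΔTrbE10 without overlap, though the steps were small. The rise of 0.70 ± 0.14 (SE) in Nkx2-5ΔTrbE10 passed (limma adjusted p = 0.0325) and the 0.32 in Nkx2-5ΔTrbE14 did not (adjusted p = 0.342). The call was lost when control 1, 3 or 4, Nkx2-5ΔTrbE10 replicate 1 or 3, or Nkx2-5ΔTrbE14 replicate 2 was left out (adjusted p up to 0.0982), and also without the filter (0.0762), with the 2 groups fitted alone (0.087) and with the replicate block (0.0749). With sex as a covariate Arrb2 was called in both mutants, at 0.78 and 0.49 (limma adjusted p = 0.00176 and 0.0468).

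**Figure D3:**
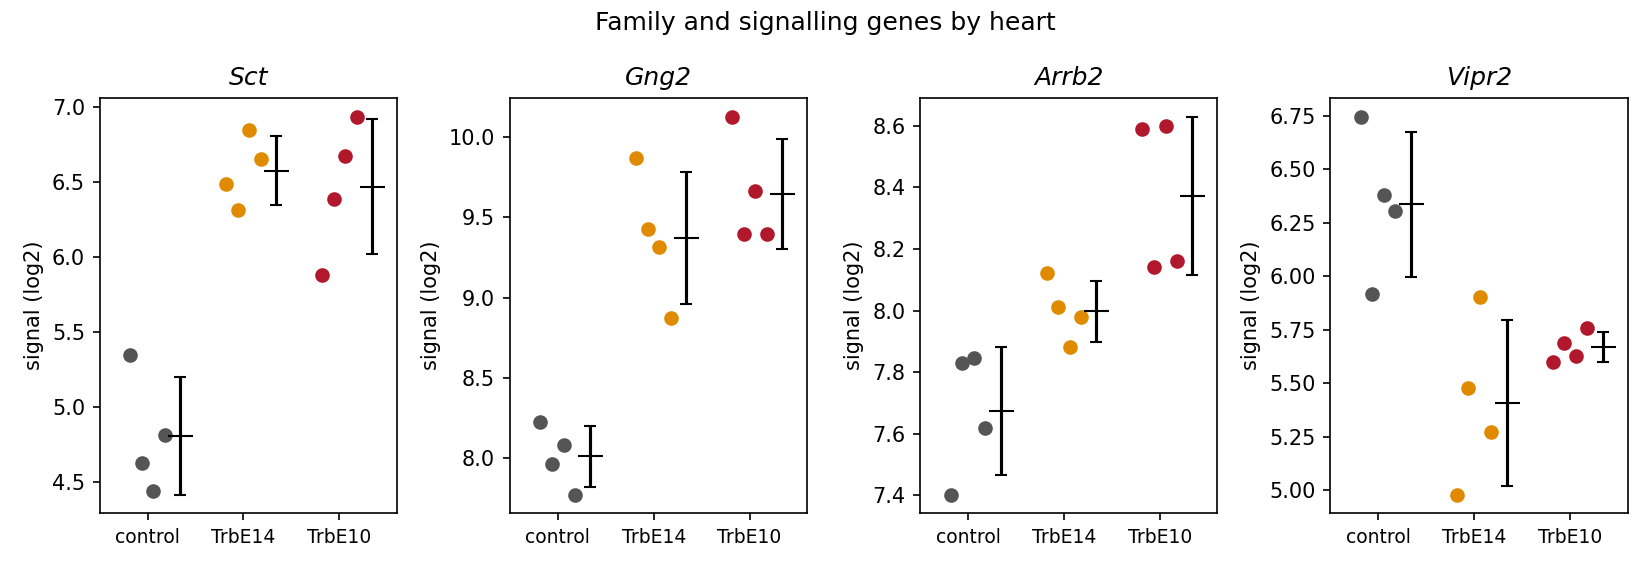
Log2 signal of Sct, Gng2, Arrb2 and Vipr2 in each heart (points) with the mean ± SD of the 4 hearts beside each group; each panel has its own vertical axis, which does not start at 0. Sct and Gng2 are higher in both mutants, Arrb2 is ordered control, Nkx2-5ΔTrbE14, Nkx2-5ΔTrbE10, and Vipr2 is lower in all mutant hearts without passing the test.

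The remaining signalling lists held 0 called genes in either mutant by limma. These were 14 phosphodiesterases (3 and 2 at an unadjusted p under 0.05), 25 genes of protein kinase A, Epac and CREB (4 and 5), 8 of the Gq and calcium arm (0 and 1) and 7 other Gs-coupled receptors (2 and 2). Pde8b, a phosphodiesterase specific for cyclic AMP, had the largest values of its list, at -1.19 and -1.33 (adjusted p = 0.142 and 0.165). Plcb1 had the largest values of the Gq and calcium arm and went the other way, at 0.83 and 1.40 (limma adjusted p = 0.32 and 0.165). Akap5, which anchors protein kinase A near receptors and channels, was at 5.29, 5.75, 6.46 and 6.35 in controls. In Nkx2-5ΔTrbE10 it split, at 5.52, 5.81, 2.79 and 2.79, and in Nkx2-5ΔTrbE14 it was not well above background on any array, which gives at least 2.97-fold lower (adjusted p = 0.257). That bound comes from the quantile normalized signal, and the log2 difference was -0.51 with normexp and -0.98 with the authors' values. Adora2b, the adenosine A2B receptor, was not well above background in either mutant, against 3 of 4 controls, or at least 1.42-fold lower in Nkx2-5ΔTrbE10 and 1.59-fold lower in Nkx2-5ΔTrbE14 (adjusted p = 0.133 and 0.295). These bounds too come from the quantile normalized signal, and the log2 differences were -0.26 and -0.29 with normexp and -0.21 and -0.22 with the authors' values. Adrb1, the main beta-adrenergic receptor of heart muscle, had -0.33 and -0.68 (adjusted p = 0.724 and 0.457).

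In the fit without covariates, the metabolic genes on which glucagon acts in liver were also not called. Of 18 genes of glycogen breakdown and synthesis, 14 of gluconeogenesis and the glycolytic switch, 15 of the fatty acid and ketone response, 12 of the amino acid and urea response and 13 of insulin signalling, 0 passed in either mutant by limma, with 4, 2, 3, 5 and 1 at an unadjusted p under 0.05 in Nkx2-5ΔTrbE10 and 1, 1, 3, 1 and 0 in Nkx2-5ΔTrbE14. Over all genes the unadjusted shares were 17.5% in Nkx2-5ΔTrbE10 and 14.9% in Nkx2-5ΔTrbE14. Pfkfb4, an enzyme that tunes glycolysis through a fructose bisphosphate, lay just short of the threshold in Nkx2-5ΔTrbE10, at 0.51 (adjusted p = 0.0516), and was chosen for mention after its values were seen. It was called there under 75th percentile scaling, normexp, the filter on 9 of 12 arrays and the authors' values, which each gave 4 listed genes, and with sex as a covariate. Gpt, of the amino acid and urea list, had -0.77 and -0.40 (limma adjusted p = 0.0819 and 0.402). With sex as a covariate, Gpt was called in Nkx2-5ΔTrbE10, at -0.84 (limma adjusted p = 0.0493), as was Gpt2. Pygm, the muscle glycogen phosphorylase, had -0.19 and 0.01 (adjusted p = 0.313 and 0.969). Phkg1, the catalytic subunit of phosphorylase kinase in muscle, had -0.74 and -0.21 (0.122 and 0.691), and was called in Nkx2-5ΔTrbE10 without its replicate 1 (0.0155). Pck1, a glucagon-induced gene of liver that makes phosphoenolpyruvate, was -1.33 in Nkx2-5ΔTrbE10 and 0.68 in Nkx2-5ΔTrbE14 (0.275 and 0.599), and the former was -0.71 without replicate 2, -0.41 with normexp and -0.42 with the authors' values. Angptl4, which responds to fasting and fatty acids, ran from 9.48 to 12.9 within Nkx2-5ΔTrbE10 alone, and its differences of 1.05 and 1.55 did not pass (0.478 and 0.349). Slc2a4, the insulin-responsive glucose transporter, had -0.38 and -0.24 (0.104 and 0.368). Without Nkx2-5ΔTrbE10 replicate 2, 8 listed genes rather than 3 were called in Nkx2-5ΔTrbE10 (5% of those tested, against 3.8% of all genes in that fit), the 5 added being Gpt, Gpt2, Gys1, Ppara and Slc2a4. That count mixes directions, as Gpt and Slc2a4 were lower there, at -0.97 and -0.49.

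No gene next to Gcgr on chromosome 11 passed the test. Within 250 kb of its probe, 31 of 34 genes on the array passed the filter, and limma called 0 in either mutant (2.36% of all genes were called in at least 1), with 3 and 1 at an unadjusted p under 0.05. Their median changes were -0.01 and -0.05, and 15 and 13 of 31 were higher than in controls. The nearest measured gene on one side was Slc25a10, the mitochondrial dicarboxylate carrier, at -40782 bases, with -0.17 and -0.13 (adjusted p = 0.725 and 0.799). On the other, Fam195b (now Mcrip1) lay 3996 bases away, with 0.22 and 0.02 (adjusted p = 0.233 and 0.933). Without Nkx2-5ΔTrbE10 replicate 2, 1 neighbour was called, Aspscr1, a partner of the glucose transporter GLUT4, at 0.59 in Nkx2-5ΔTrbE10 (limma adjusted p = 0.0452). No gene in the RefSeq table overlapped Gcgr.

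**Figure D4:**
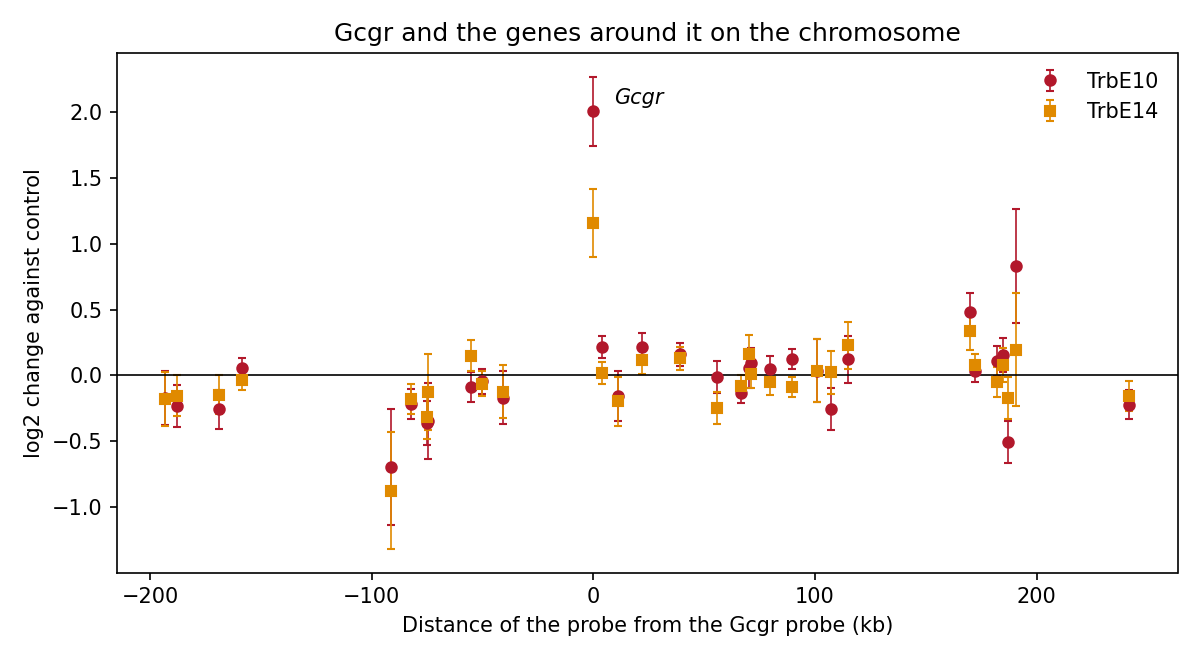
Change in log2 signal against control (vertical axis, ± SE of the limma fit) of Gcgr and of 31 measured genes within 250 kb, by the distance of their probes from the Gcgr probe in kb, for Nkx2-5ΔTrbE10 (red circles) and Nkx2-5ΔTrbE14 (orange squares). Gcgr stands at 2.01 and 1.16, and no neighbour was called.

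The genes whose signal over the 12 arrays was most like that of Gcgr included, by Pearson correlation, Rorb (0.945), Atp6v0e (0.931), Vgll2 (0.930), Stab1 (0.923), Eef1a1 (0.916), Olfml3 (0.910), Hcst (0.905), Fam26e (0.905) and Vav1 (0.903). All share the same 3 groups and 2 slides, and 203 of 13311 genes exceeded 0.8. With group means taken out the correlations were 0.68 for Rorb, 0.74 for Atp6v0e, 0.46 for Vgll2, 0.71 for Stab1, 0.56 for Eef1a1, 0.61 for Olfml3, 0.26 for Hcst, 0.58 for Fam26e and 0.21 for Vav1. These genes were picked by the correlation over all 12 arrays, which holds the within-group part too, so nothing is read from these values. Rorb, a nuclear receptor of the ROR family, had 5.88, 6.30, 5.70 and 5.51 in controls, 7.70, 7.71, 7.59 and 7.69 in Nkx2-5ΔTrbE10 and 7.21, 7.46, 7.48 and 6.39 in Nkx2-5ΔTrbE14. Vgll2, a cofactor of TEAD transcription factors known from skeletal muscle, spanned a far wider range, with differences of 4.22 and 2.93 from control. Atp6v0e, a subunit of the vacuolar proton pump, spanned only 0.20 and 0.15, and its correlation dropped to 0.678 under 75th percentile scaling. Stab1, a scavenger receptor, Hcst, a signalling adaptor, and Vav1, an exchange factor, are all known from macrophages or other white blood cells. Whether such cells carry any of the Gcgr signal was not tested.

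**Figure D5:**
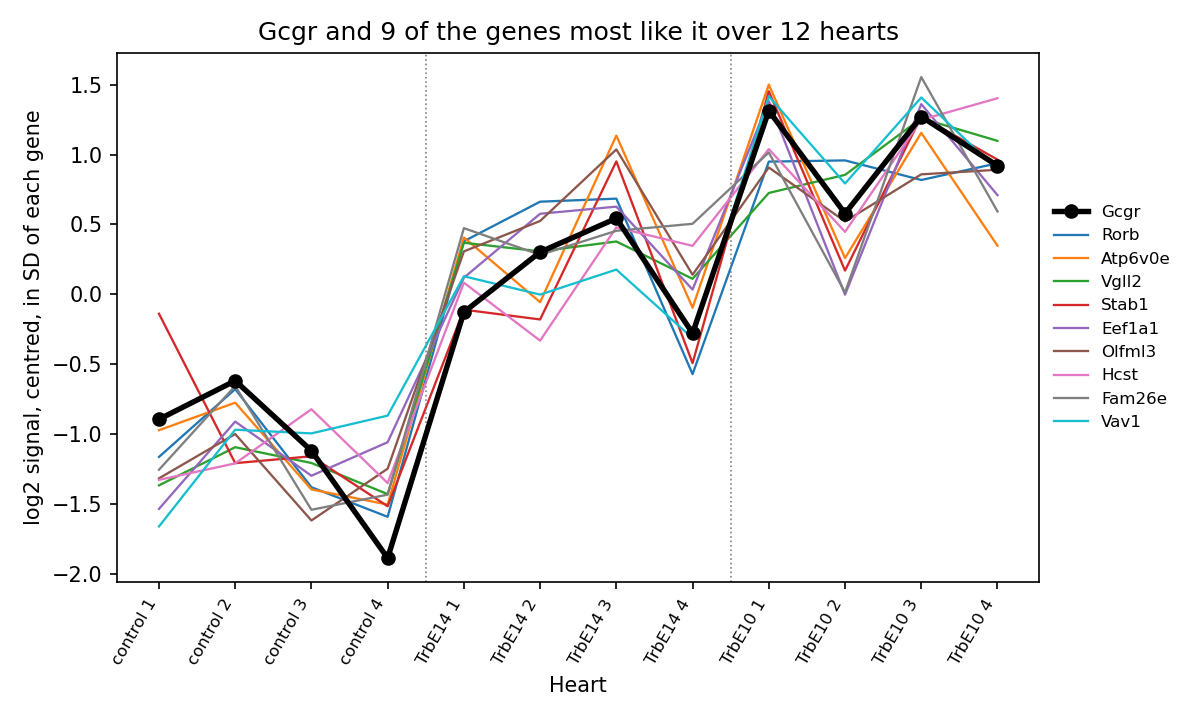
Log2 signal of Gcgr (black) and of 9 of the genes most correlated with it, each centred on its mean and divided by its SD over the 12 hearts (vertical axis, in SD), by heart (horizontal axis), with dotted lines between groups. The lines follow the steps from control to Nkx2-5ΔTrbE14 to Nkx2-5ΔTrbE10, and most also drop in Nkx2-5ΔTrbE10 replicate 2 and Nkx2-5ΔTrbE14 replicate 4.

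With group means taken out, another 5 genes headed the order: Pde9a (0.952), Ptpn23 (0.893), Kdm4b (0.874), Palm (0.872) and Slc4a2 (0.870), where the 99th percentile of all genes was 0.678. None of the 5 differed between the groups in the way Gcgr did, with changes from control between -0.22 and 0.13. Sct, Gng2 and Arrb2 correlated with Gcgr at 0.75, 0.88 and 0.84 over all arrays, and at -0.03, 0.43 and 0.30 within groups.

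No marker of the tissues where the receptor is well known was called higher. Of 15 hepatocyte markers, 6 passed the filter and 0 were called, while Alb, Apoa1, Apob, Fga and Apoh were never well above background. Their summed signal was 2142 to 2836 in controls, 2109 to 5163 in Nkx2-5ΔTrbE10 and 2536 to 3191 in Nkx2-5ΔTrbE14. Among them Ahsg, which encodes the plasma protein fetuin-A, had the highest differences, at 1.78 and 1.01 (limma adjusted p = 0.0937 and 0.386). The lowest differences of the 6 were -1.58 and -2.42. In Nkx2-5ΔTrbE10, 3 of the 6 were higher and 3 lower than in controls (median -0.05). In Nkx2-5ΔTrbE14, 5 were higher and 1 lower (median 0.42). Of 10 pancreatic islet markers, 7 stayed under that limit on all arrays, Gcg among them, and of 8 kidney tubule markers, 5 did. The only marker of these called was Slc22a6, an organic anion transporter of the kidney, which fell by 1.01 in Nkx2-5ΔTrbE10 (limma adjusted p = 0.00704). Adipocyte markers, of which 6 of 8 passed and Lep was never well above background, summed to a linear signal of 32490 to 40374 in controls, 29980 to 57829 in Nkx2-5ΔTrbE10 and 36860 to 60450 in Nkx2-5ΔTrbE14, so the ranges overlapped, and 0 were called. Of the 6, 5 had lower values than controls in each mutant, with medians over the list of -1.31 and -0.34 and 2 and 0 at an unadjusted p under 0.05. The part of liver and fat cells in the Gcgr signal was not tested.

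Markers of other heart cells also differed between the groups. All 10 macrophage markers passed, and their summed signal was 16520 to 18252 in controls, 21007 to 24270 in Nkx2-5ΔTrbE14 and 23174 to 26521 in Nkx2-5ΔTrbE10. Both mutants lay above controls and overlapped each other. In Nkx2-5ΔTrbE10 limma called 4 of them higher, of which C1qa, Cd68 and Csf1r were well above background in controls and Fcgr1 passed the filter only through the mutants, and in Nkx2-5ΔTrbE14 only Csf1r, the receptor for macrophage growth factor, by 0.92. For this and the lists below, 1.58% of all 13316 genes were called higher in Nkx2-5ΔTrbE10 and 0.653% lower. In Nkx2-5ΔTrbE14 the shares were 0.653% higher and 0.128% lower. The 8 fibroblast markers summed to 68128 to 76188 in controls, 87445 to 104450 in Nkx2-5ΔTrbE10 and 92073 to 108180 in Nkx2-5ΔTrbE14. Here too both mutants lay above controls and overlapped each other, and Dcn was called higher in both. Of 8 endothelial markers Vwf was called higher in both mutants. Of 7 atrial muscle markers that passed, Bmp10 was called higher in both mutants, and in Nkx2-5ΔTrbE10 Sln was called higher and Stard10 lower. Bmp10 was not well above background in controls and passed the filter only through the mutants, where it is high. No result without that filter is given for its calls. The summed atrial signal was 15678 to 74316 in controls, 58069 to 186200 in Nkx2-5ΔTrbE10 and 87905 to 104080 in Nkx2-5ΔTrbE14. The 10 cardiomyocyte markers were all present and 0 were called. The part of these cell types in the Gcgr signal was not tested.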

How the data were processed

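The authors deposited scanner output from Agilent Feature Extraction 10.5, from which the background-subtracted processed signal, a linear intensity, and the flags were used. They also deposited a table of normalized log2 values, in which the deposited scale matches the scanner signal and the way of centring is not given in the sources used here. Outlier spots were set aside, intensities were taken to log2 and quantile normalized, spots of a probe were averaged, and probes well above background on 3 of 4 arrays of any group were kept (24593 probes). Limma 3.58.1 in R 4.3.3 fitted the 3 groups together, with Benjamini-Hochberg adjustment over all kept probes. A gene was represented by its brightest kept probe. The SAM test of the study was not run. The script was tested on simulated data. Genes were named by rule: those called, the brightest and most changed of each list, the nearest neighbours and the 10 genes most like Gcgr, of which 1 is not reported here. Gcgr, the gene lists and the markers were chosen with earlier results of these data known. No 2 arrays held identical values. Each array came from 1 mouse, and precision is limited by the number of mice. Alternatives are given in the closing section.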

Additional observations from a re-analysis of the deposited data

Results flagged for a closer look

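Of 93 groups of 4 arrays examined, 3 held a sample that stood apart from the other 3 (Dixon's criterion), where chance alone gives about 1 in 20. Nkx2-5 in Nkx2-5ΔTrbE10 was highest in replicate 2, at 11.67 against 11.27 for the next. Itpr2, an inositol trisphosphate receptor, was highest in Nkx2-5ΔTrbE14 replicate 2, at 11.56 against 10.85 (log2 signal). Slc2a4 was highest in the same mouse, at 15.41 against 15.21. Gcgr had no such sample in any group.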

How the results depend on the processing

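None of the results changed direction. The Gcgr differences kept their sign under every setting tried, and left the range of replicate spread only with normexp, at 1.00 for Nkx2-5ΔTrbE10 and 0.41 for Nkx2-5ΔTrbE14. Leaving out 1 mouse at a time gave 1.77 to 2.17 for Nkx2-5ΔTrbE10, 0.92 to 1.32 for Nkx2-5ΔTrbE14 and 0.73 to 0.99 between the mutants. The number of pathway genes called in Nkx2-5ΔTrbE10 was 7 with sex as a covariate and 2 to 8 with 1 mouse left out. In Nkx2-5ΔTrbE14 it was 4 with sex as a covariate and 1 to 3 with 1 mouse left out. Neighbours of Gcgr called in either mutant numbered 0 to 1, the 1 without Nkx2-5ΔTrbE10 replicate 2. The cause was not tested. Replicate numbers were not taken to pair the samples: same-numbered arrays correlated at -0.24 to 0.48, with 3 of 12 pairs over 0.1, all 3 between the mutants, and 6 of 12 arrays were most like their own number, a hint from the data and not from the design. With the replicate block, 3 pathway genes were called in each mutant (Gng2, Pde8b and Sct), so Arrb2 was lost, and the Gcgr difference stayed at 2.01. Of 364 single-gene results, 341 kept their side of the threshold, 12 became weaker and 11 stronger. A slide block could not be fitted for Nkx2-5ΔTrbE10. Dim signal limits Gcgr most in controls.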
